A study of Homo sapiens with 6 samples.

Results

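Collagen genes were followed in Hep3B cells, an established human hepatocellular carcinoma cell line, with and without a knockout of RFX6, a transcription factor of the regulatory factor X family. The members were selected on their symbols alone, as every row named COL, digits, A and digits, which gave 39 of the 16720 named rows of the count table, 11 of them fibrillar. RNA was sequenced from 3 libraries labelled wild type with a control guide (sgControl) and from 3 libraries labelled RFX6 knockout (sgRFX6), all from cells that received a lentiviral CRISPR-Cas9 construct and were selected with puromycin. Clones grown from single cells were picked after selection, and whether the sgRFX6 libraries came from 1 clone or several was not stated. The knockout columns name the guide sg3, while the control columns carry the name cas without a guide and were taken as sgControl. The labels do not say that the replicates were separate cultures, so p-values measure only the spread between these libraries, which may be technical. No symbol was chosen by its counts, but the family was taken up with its differences between the groups known. The calls below were made in a fit of the whole table and are therefore given as a description that supports nothing by itself.

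Collagens are extracellular proteins built around a triple helix of repeating glycine-containing units. Fibrillar types assemble into the tensile fibres of connective tissue, and type IV forms the sheet-like network of basement membranes. Type VI forms beaded filaments around cells, and other types coat fibrils, anchor epithelia or span the plasma membrane. In liver, hepatic stellate cells are the main known source of fibrillar collagen in fibrosis, whereas hepatocytes make little of it.

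The libraries held 16730386 to 25070793 counts, and 3 counts in a library, used here as the floor of detection, corresponded to 0.122 to 0.189 CPM (counts scaled by library size). RFX6 had 117, 144 and 170 counts with the control guide and 69, 59 and 77 counts with the knockout. The groups did not overlap (6.27 ± 0.931 against 3.54 ± 0.146 CPM, SD, n = 3 each), but RFX6 did not pass the test (log2 fold change -0.82, SE 0.26, edgeR adjusted p = 0.142). The paper reports checking the knockout by western blotting and real-time PCR, and protein was not measured here. The hepatocyte transcription factor HNF4A was between 109 and 161 CPM in all libraries. Of the hepatocyte markers, 10 of 10 were above the filter on low counts, but only 1, HNF4A, exceeded 100 CPM in both groups. ALB averaged 20.2 CPM in sgControl and 22.0 CPM in sgRFX6, APOA1 1.06 and 1.79 CPM, and TTR 0.482 and 0.674 CPM. FGB was lower in sgRFX6 (log2 fold change -2.45, SE 0.32, edgeR adjusted p = 0.00417). Among markers listed for other cell types, KRT19 averaged 736 and 592 CPM and CD68 105 and 86.4 CPM. These were the highest of the cholangiocyte and leukocyte lists. The other leukocyte markers PTPRC, LYZ, CD3E and CD14 averaged at most 1.84 CPM in either group. The cholangiocyte markers KRT7, EPCAM and SOX9 averaged 0.718 to 9.03 CPM. Of the endothelial markers, PECAM1 averaged 12.1 and 16.6 CPM. VWF, KDR, TEK and ERG averaged at most 0.429 CPM, and CDH5 had no row. The sgControl library 2 stood apart from its replicates (chi-square over genes divided by its degrees of freedom 68.7 and 85.4, against 16.3 between the other 2), and sgRFX6 library 3 differed from its replicates by 94.3 and 117, against 17.9.

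Of the 39 collagen genes, 20 passed the filter on low counts. In the quasi-likelihood test of edgeR, with a threshold of 0.05 on the adjusted p-value, 6 were lower in sgRFX6 (COL1A1, COL1A2, COL3A1, COL4A4, COL9A3 and COL27A1), 2 were higher (COL6A3 and COL17A1) and 12 were not called. Among all 12839 genes tested, 1.81% were called lower and 1.92% higher. Of the 20, 8 had every sgRFX6 library below every sgControl library, 3 had every one above and 9 overlapped, against 11.2% and 12.0% of all genes tested for the first and second pattern. The median log2 fold change of the 20 was -0.25, and that of all genes tested was 0.02. COL1A2, COL3A1, COL4A4 and COL10A1 had counts above the filter in sgControl libraries alone, so that passing it already required a difference, and these counts are read no further.

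**Figure D1:**
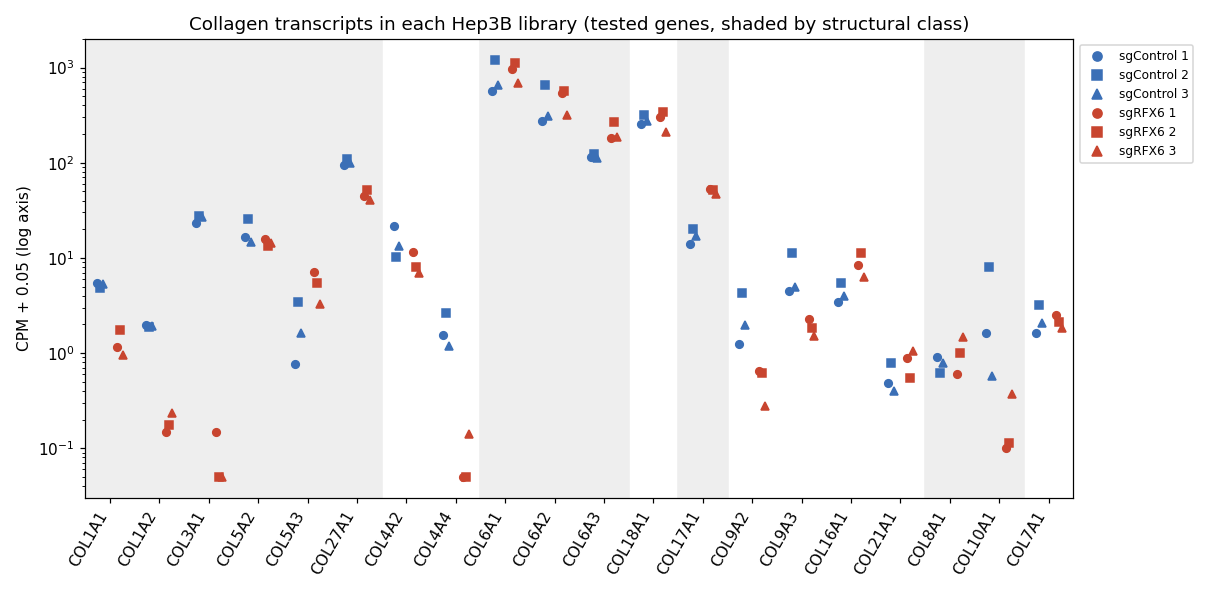
CPM + 0.05 on a log axis for the 20 collagen genes that passed the filter, with 1 symbol per library, sgControl in blue and sgRFX6 in red, and shading by structural class. COL3A1 was at 25.7 CPM on average in sgControl and at 0.0331 CPM in sgRFX6, while COL6A1 averaged 814 and 920 CPM and its groups overlapped.

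Among the fibrillar collagens, 4 of the 6 genes tested were called lower by edgeR, 0 higher and 2 were not called. The shares of all genes called lower and higher were 1.81% and 1.92%, and 2 of the 4, COL3A1 and COL1A2, passed the filter through sgControl alone, so the count is listed only as a description. Of the 6, 1 was higher at an unadjusted p under 0.05, 0 were called higher by DESeq2 and 1, COL5A3, by limma-voom. The median log2 fold change of the 6 was -1.60, with those 2 genes included. The summed level of the 11 fibrillar genes was 155 ± 16.2 CPM in sgControl, against 68.0 ± 6.94 CPM after the knockout (SD, n = 3 each). The sums were 143, 174 and 149 CPM against 69.9, 73.8 and 60.3 CPM, and the groups did not overlap. Most of this difference lay in COL27A1 (100 against 45.8 CPM on average) and COL3A1 (25.7 against 0.0331 CPM). Among the 28 collagen genes of other types, 14 were tested, of which 2 were called lower and 2 higher, with a median of 0.09. The difference between fibrillar and other types was not tested.

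COL3A1, the single chain of type III collagen (chr2:188974320-189012746, plus strand), was counted 478, 680 and 615 times in sgControl and 2, 0 and 0 times in sgRFX6. It was thus well represented in all sgControl libraries and at the floor in all sgRFX6 libraries. Corrected for depth, the pooled counts stood in a ratio of 750 (95% counting interval 207 to 6200). The fitted log2 fold change of -9.32 (SE 0.57, edgeR adjusted p = 0.000290) depends on the prior count at such low values. Such intervals reflect the counting error of pooled counts alone and leave out the spread between libraries. They may also be too narrow, because PCR copies of a molecule are not independent reads.

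The chains of type I collagen, the main collagen of fibrous tissue, were both called lower. COL1A2 (chr7:94394561-94431232, plus strand) was counted 40, 45 and 43 times in sgControl and 2, 2 and 4 times in sgRFX6 (log2 fold change -3.71, SE 0.42, edgeR adjusted p = 0.00276). COL1A1 (chr17:50183289-50201632, minus strand) was counted 113, 118 and 122 times against 22, 27 and 20 times (-2.08, SE 0.33, adjusted p = 0.0108). The sgControl libraries were nearly level for both genes, and no sgRFX6 library reached them. Per kilobase of transcript, COL1A1 was 2.27, 2.11 and 2.28 times COL1A2 in sgControl. In sgRFX6 library 3, the only one of its group with COL1A2 above the floor, the ratio was 4.02. The call for COL1A1 was lost without sgControl library 3 (adjusted p = 0.0559) or without sgRFX6 library 1 (adjusted p = 0.0650).

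COL27A1, a fibrillar collagen found in cartilage (chr9:114155560-114312511, plus strand), was the most abundant fibrillar gene per kilobase. Its level was 93.8, 109 and 98.1 CPM in sgControl and 44.9, 52.0 and 40.6 CPM in sgRFX6. All sgRFX6 libraries were lower (log2 fold change -1.13, SE 0.17, edgeR adjusted p = 0.00917). Without sgControl library 3 or sgRFX6 library 1 the adjusted p-value was 0.0517 or 0.0627. COL27A1 made up 57.4 to 60.2% of fibrillar transcripts per kilobase in sgControl and 60.9 to 67.4% in sgRFX6, so it led in every library. The 250 bases upstream of its RefSeq start, which hold no exon in GENCODE release 29, are shown because COL27A1 carried most of the fibrillar signal. Capitals mark the GC box letters GGGCGG (either strand), which occurred 2 times here.
COL27A1 upstream, GRCh38.p14, chr9:114155287-114155536, plus strand: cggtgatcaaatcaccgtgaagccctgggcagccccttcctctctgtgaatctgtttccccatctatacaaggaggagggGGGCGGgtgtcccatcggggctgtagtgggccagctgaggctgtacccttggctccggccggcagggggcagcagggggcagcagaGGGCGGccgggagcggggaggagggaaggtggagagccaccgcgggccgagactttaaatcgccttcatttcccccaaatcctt

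COL5A2 and COL5A3, chains of the fibril-nucleating type V collagen, were tested and not called. COL5A2 was counted 343, 633 and 335 times in sgControl and 317, 213 and 318 times in sgRFX6, with overlapping CPM (18.9 ± 5.95 against 14.5 ± 1.18 CPM, log2 fold change -0.38, SE 0.27, edgeR adjusted p = 0.573). COL5A3, named after its values were seen, was counted 15, 84 and 36 times against 141, 85 and 71 times (1.44, SE 0.54, adjusted p = 0.223). Without sgControl library 2 its log2 fold change was 2.17 (adjusted p = 0.0723), and it was called in 2 of 13 alternatives, limma-voom among them (0.000286). The sgControl library 2 lay above sgRFX6 library 3 for COL5A3 (3.40 against 3.23 CPM). COL5A1, the chain with which COL5A2 usually pairs, was too low to be tested, with counts of 19, 16 and 8 in sgControl against 0, 1 and 0. Its pooled ratio was 36.4 (95% counting interval 6.19 to 1470). The remaining fibrillar genes COL2A1, COL11A1, COL11A2 and COL24A1 had 0 to 11 counts in any library.

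The makeup of fibrillar transcripts per kilobase thus differed in its smaller parts. COL3A1 held 20.4 to 22.9% in sgControl and 0 to 0.19% in sgRFX6. COL5A2 held 9.77 to 14.9% in sgControl and 19.1 to 25.2% in sgRFX6. COL5A3 went from 0.58 to 2.26% in sgControl to 6.46 to 12.0% in sgRFX6. These are shares of a smaller sum, and the level of COL5A2 itself overlapped between the groups.

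**Figure D2:**
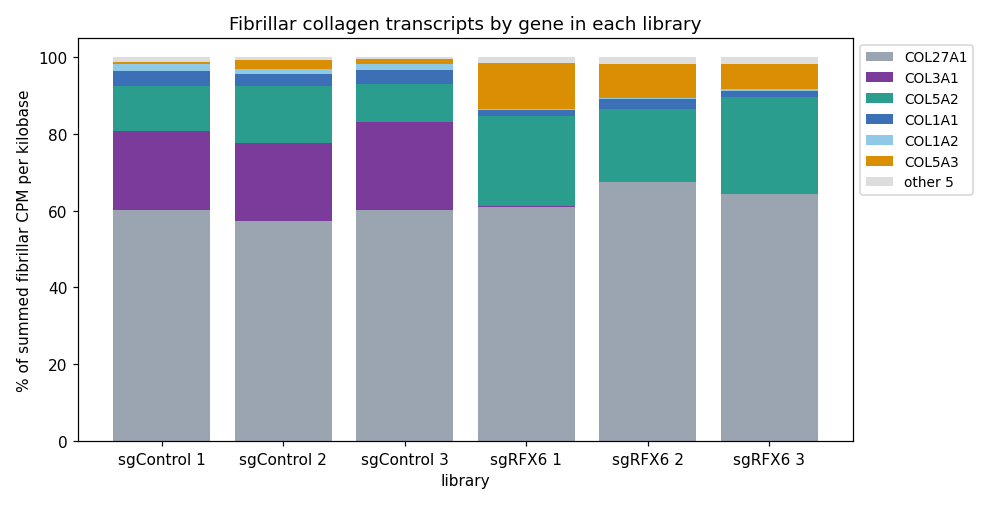
Share of each gene (%) in the summed CPM per kilobase of the 11 fibrillar collagen genes, 1 bar per library. The COL3A1 segment takes at least 20.4% of each sgControl bar and at most 0.19% of the sgRFX6 bars, and COL27A1 is the largest segment of all 6 bars.

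Markers of fibroblasts and stellate cells were examined beside the fibrillar genes. In bulk RNA, fewer cells of a type and less RNA per cell cannot be told apart. Of the 12 markers, 11 had a row and 5 passed the filter, and their summed level was 25.6 to 33.1 CPM in sgControl and 25.2 to 59.6 CPM in sgRFX6. PDGFRA, a receptor of mesenchymal cells, was counted 36, 33 and 69 times in sgControl and 2, 3 and 0 times in sgRFX6. It was called lower (log2 fold change -4.43, SE 0.72, edgeR adjusted p = 0.0120). PDGFRA passed the filter through sgControl alone, so that passing it already required a difference, and the call is read no further. PDGFRB was counted 10, 15 and 5 times against 3, 0 and 2 times, and THY1 3, 5 and 4 times against 0, 2 and 0 times. LUM, a fibril-binding proteoglycan that held most of the summed level, was not called, with 408, 616 and 388 counts against 392, 327 and 1205. TAGLN, also not called, had 56, 98 and 84 counts against 91, 87 and 76, DCN 10, 23 and 10 against 10, 9 and 7, and RGS5 19, 20 and 24 against 7, 6 and 19. The markers did not move one way, since LUM and TAGLN averaged higher in sgRFX6 while the others with a row averaged lower. LUM was at 19.5, 20.6 and 54.7 CPM in the sgRFX6 libraries, so its higher mean and the highest sum rest on library 3. The defining markers DPT and DES had 0 to 3 counts in every library, LRAT 0 to 4 and ACTA2 0 to 8. The part of these markers in the fibrillar result was not tested.

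Type IV collagen, the network of basement membranes, had 5 genes in the table, of which 2 were tested. COL4A4 was the 1 called, lower, where 1.81% of all genes tested were called lower. It passed the filter through sgControl alone, so its call is given only as a description. COL4A4 (chr2:227002711-227164453, minus strand) was counted 31, 64 and 26 times in sgControl and 0, 0 and 2 times in sgRFX6. All sgRFX6 libraries were at the floor, and the pooled ratio was 51.2 (95% counting interval 13.9 to 428). The fitted log2 fold change was -5.45 (SE 0.80, edgeR adjusted p = 0.00805). COL4A3, its partner in the basement membrane of the kidney glomerulus, was counted 4, 4 and 6 times in sgControl and 0, 0 and 2 times in sgRFX6, too low for the test (pooled ratio 5.92, 95% counting interval 1.36 to 53.7). COL4A2 was counted 443, 250 and 310 times against 231, 126 and 153 times, with overlapping CPM (14.9 ± 5.77 against 8.78 ± 2.38 CPM, log2 fold change -0.77, SE 0.33, adjusted p = 0.314). COL4A1, which assembles with COL4A2 in most tissues, was counted 14, 8 and 12 times in sgControl and 0, 1 and 1 times in sgRFX6 (pooled ratio 14.4, 95% counting interval 3.69 to 124). COL4A5 had 0 or 1 count in any library.

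COL4A3 and COL4A4 lie head to head with 111 bases between their annotated starts. COL4A1 and COL4A2 are also divergent and overlap at their 5′ ends. Since the counting of strand was not stated, reads in that overlap cannot be assigned to either. Per kilobase, COL4A2 was 26.3 to 32.2 times COL4A1 in sgControl, and COL4A4 was 3.50 to 12.9 times COL4A3. The interval between the COL4A3 and COL4A4 starts is shown because both genes read outward from it and both were at the floor in sgRFX6. Capitals mark a GC box (GGGCGG, either strand).
COL4A3 and COL4A4 shared upstream interval, GRCh38.p14, chr2:227164454-227164564, plus strand: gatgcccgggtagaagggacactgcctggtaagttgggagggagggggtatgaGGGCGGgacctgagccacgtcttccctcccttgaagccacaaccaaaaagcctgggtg

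COL3A1 and COL5A2 are also neighbours, transcribed toward each other on chromosome 2 with 19149 bases between them. Per kilobase, COL3A1 was 1.37 to 2.35 times COL5A2 in the sgControl libraries. In the sgRFX6 libraries it was 0.00806, 0 and 0 times. The nearest 50 tested genes around COL3A1 had a median log2 fold change of 0.07, and those around COL4A4 of 0.02.

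**Figure D3:**
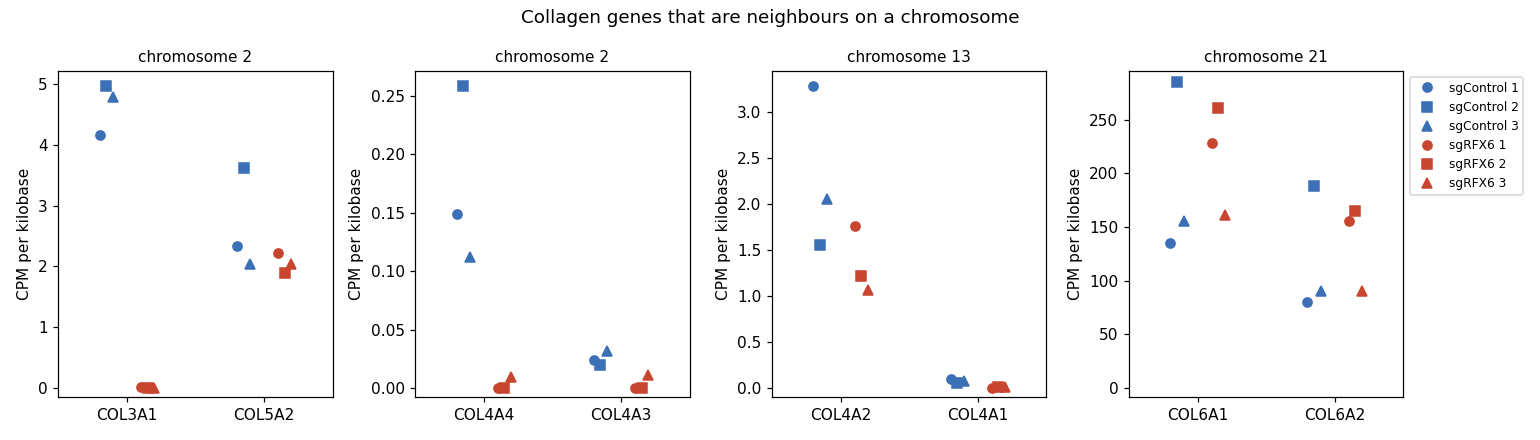
CPM per kilobase on linear axes for 4 pairs of neighbouring collagen genes, 1 symbol per library, sgControl in blue and sgRFX6 in red. COL3A1 separates the groups while COL5A2 overlaps, COL4A4 and COL4A3 are both near 0 in sgRFX6, and COL6A1 and COL6A2 overlap with sgControl library 2 highest.

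Type VI collagen, whose chains COL6A1, COL6A2 and COL6A3 assemble together, was the most abundant collagen in both groups. COL6A1 was at 574, 1209 and 659 CPM in sgControl and 969, 1106 and 685 CPM in sgRFX6, and COL6A2 at 277, 652 and 313 CPM against 538, 571 and 314 CPM. Both overlapped between groups, and sgControl library 2 was the highest of all 6. Neither was called by edgeR (log2 fold change 0.18, SE 0.31, edgeR adjusted p = 0.869 for COL6A1, and 0.20, SE 0.35, adjusted p = 0.876 for COL6A2). Only limma-voom with sample quality weights called them higher, when it called 18.1% of all genes higher. Its log2 fold changes were 0.58 (limma-voom adjusted p = 0.00855) for COL6A1 and 0.76 (0.00336) for COL6A2. COL6A1 and COL6A2 lie 93046 bases apart on chromosome 21, and per kilobase COL6A1 was 1.47 to 1.78 times COL6A2 over the 6 libraries.

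COL6A3 (chr2:237324003-237414375, minus strand) was higher in sgRFX6, at 183, 265 and 188 CPM against 115, 124 and 113 CPM. The groups did not overlap (log2 fold change 0.85, SE 0.19, edgeR adjusted p = 0.0437). The call was lost in 5 of the 6 fits that left out a library, with adjusted p-values from 0.0925 (without sgRFX6 library 1) to 0.163 (without sgControl library 3), and held only without sgRFX6 library 3 (0.0301). The others were 0.0947 without sgControl library 2, 0.133 without sgRFX6 library 2 and 0.157 without sgControl library 1. Per kilobase, COL6A1 exceeded COL6A3 12.6, 24.7 and 14.8 times in sgControl and 13.4, 10.6 and 9.25 times in sgRFX6, and these ranges overlapped. COL6A5 and COL6A6 had 0 to 2 counts in any library.

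COL17A1, the transmembrane collagen of hemidesmosomes that ties epithelial cells to the basement membrane (chr10:104031286-104085957, minus strand), was the other gene called higher. It was counted 291, 491 and 388 times in sgControl and 1052, 814 and 1035 times in sgRFX6. Each sgRFX6 library lay above each sgControl library (50.1 ± 2.76 against 16.9 ± 2.94 CPM, SD, n = 3 each). The log2 fold change was 1.57 (SE 0.21, edgeR adjusted p = 0.00458), and the call held in every fit that left out a library. The nearest 50 tested genes had a median of -0.21. The stretch upstream of its RefSeq start is shown as that of the collagen gene with the largest called rise. Capitals mark the TATA box letters TATAAA and the CCAAT letters, read here on the other strand as ATTGG.
COL17A1 upstream, GRCh38.p14, chr10:104085958-104086130, minus strand: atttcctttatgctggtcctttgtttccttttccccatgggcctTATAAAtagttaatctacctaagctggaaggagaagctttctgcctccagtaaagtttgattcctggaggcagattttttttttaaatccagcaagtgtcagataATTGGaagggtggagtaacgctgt

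RefSeq windows from 250 bases before to 50 bases after a transcription start were given for 28 of the 39 collagen genes, as 39 windows. The half-site GTTGCC of RFX factors, sought on both strands, was in 6 of the 39 windows, against 12.2% of 35116 windows of all genes. Those 6 belonged to COL4A5, COL9A1, COL9A2, COL11A2, COL21A1 and COL24A1, of which COL9A2 and COL21A1 were tested. CCAAT was in 12 of 39 (34.6% of all windows), GGGCGG in 21 (44.95%) and TATAAA in 8 (11.5%). No motif contains another, a match is a description of letters only, and windows of COL1A1, COL1A2 and COL3A1 were not used here.

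The fibril-associated collagens, which sit on the surface of fibrils, had 9 genes in the table and 4 tested. Of these 4, 1 was called lower, against 1.81% of all genes tested. COL9A3 (chr20:62816244-62841159, plus strand) was called lower, with counts of 92, 274 and 113 in sgControl against 45, 28 and 32. The lowest sgControl library was 4.43 CPM and the highest sgRFX6 library 2.24 CPM (log2 fold change -1.90, SE 0.42, edgeR adjusted p = 0.0435). This call was lost in 5 of 6 fits that left out a library, with adjusted p-values of 0.0653 without sgControl library 2, 0.0806 without sgControl library 3, and 0.105, 0.123 and 0.0813 without sgRFX6 library 1, 2 and 3. COL9A2, which encodes another chain of the same trimer and is named after its values were seen, was counted 25, 105 and 44 times against 12, 9 and 5 times and was not called (-2.42, SE 0.59, adjusted p = 0.0623). COL9A2 was called in 6 of 13 alternatives, with adjusted p-values from 0.00446 (DESeq2) to 0.0398 (no filter), among them 0.0356 without sgControl library 1. Without sgControl library 2 its log2 fold change was -1.76 (adjusted p = 0.130). COL9A1, the remaining chain, had 0 to 2 counts in any library.

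COL16A1, also named after its values were seen, was counted 71, 132 and 91 times in sgControl and 168, 179 and 139 times in sgRFX6. Its groups did not overlap in CPM (4.23 ± 0.998 against 8.64 ± 2.48), yet it was not called (log2 fold change 1.02, SE 0.31, edgeR adjusted p = 0.131). DESeq2 (adjusted p = 0.0421), limma-voom (0.000812) and the fit with the GC trend removed (0.0113) called it. COL12A1, a large collagen of tendon and stroma, was counted 10, 15 and 8 times against 1, 3 and 3 times and was too low to be tested (pooled ratio 3.99, 95% counting interval 1.74 to 10.7). COL21A1 was counted 8 to 18 times in sgControl and 8 to 22 times in sgRFX6. It was not called by edgeR and was called higher by limma-voom (adjusted p = 0.0428). COL14A1 had 1 to 4 counts, and COL19A1 and COL20A1 had 0 or 1.

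COL10A1, the network-forming collagen of hypertrophic cartilage, was counted 33, 198 and 12 times in sgControl and 1, 1 and 7 times in sgRFX6. The groups did not overlap, but the sgControl libraries spread from 0.518 to 8.02 CPM. It was not called (log2 fold change -4.43, SE 1.12, edgeR adjusted p = 0.0734), and without sgControl library 2 the log2 fold change was -2.73 (adjusted p = 0.155). It was called in 6 of 13 alternatives, among them without sgControl library 3 (adjusted p = 0.0437), without the filter (0.0358), with the GC trend removed (0.0405), by DESeq2 (0.000182) and by limma-voom (0.00434). COL10A1 lies on chromosome 6, as does RFX6, 718464 bases away. The 5 tested genes between them ranged in log2 fold change from -0.71 to 0.59, and edgeR called 0 of them (1 at an unadjusted p under 0.05, 0 by DESeq2 and 1 by limma-voom with sample quality weights).

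The multiplexin, anchoring fibril and short chain genes had no called member by edgeR. COL18A1, the basement membrane proteoglycan from which endostatin is released, was at 258, 318 and 274 CPM in sgControl and 303, 339 and 211 CPM in sgRFX6 (log2 fold change 0.01, SE 0.21, edgeR adjusted p = 0.994). COL7A1, which forms the anchoring fibrils of skin, was at 1.59 to 3.16 CPM against 1.77 to 2.43 CPM (-0.11, SE 0.36, adjusted p = 0.936). COL8A1, a short chain collagen of vessel walls, had 14 to 18 counts against 11 to 31, and COL8A2 3 to 16 against 5 to 15. COL26A1 had 5, 21 and 9 counts against 8, 4 and 5 and was not tested. COL13A1 and COL28A1 had 0 to 3 counts in any library.

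**Figure D4:**
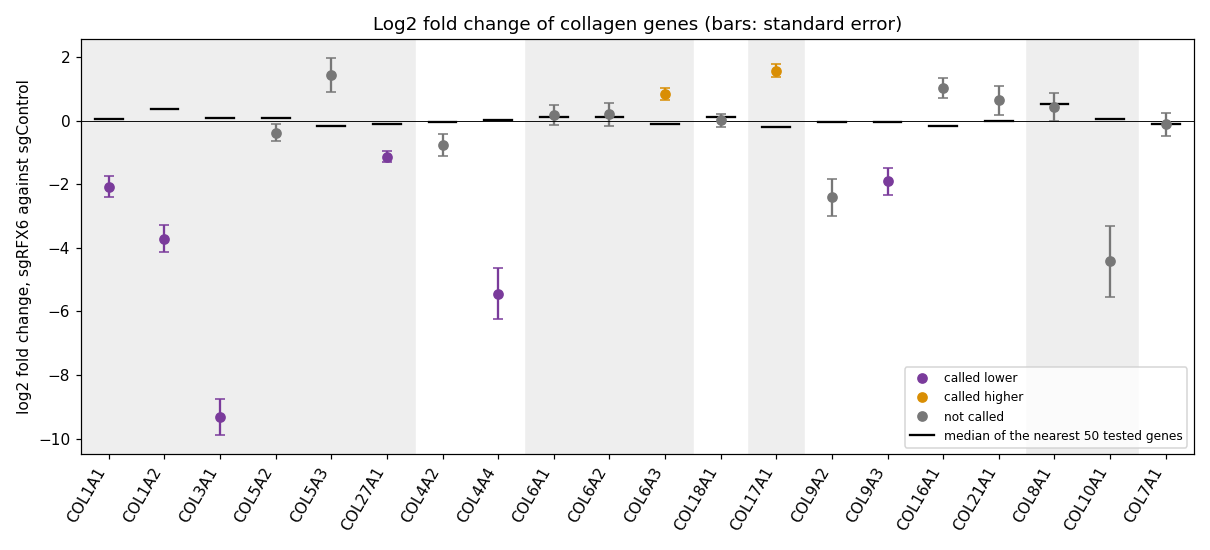
Log2 fold change of sgRFX6 against sgControl with its standard error for the 20 collagen genes tested, by structural class, with a black tick at the median of the nearest 50 tested genes. COL3A1 (-9.32) and COL4A4 (-5.45) are the lowest and COL17A1 (1.57) the highest, while the regional ticks lie between -0.21 and 0.53.

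Summed over all 39 genes, collagen transcripts were at 1840 ± 615 CPM in sgControl and 2034 ± 463 CPM in sgRFX6, and the groups overlapped. COL6A1, COL6A2, COL6A3 and COL18A1 held most of this sum. Without these 4, a choice made after the values were seen, it was 196, 242 and 196 CPM in sgControl and 150, 151 and 128 CPM in sgRFX6, without overlap.

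The sgControl library 2 moved with several of these results. COL10A1 was 7.61 times its mean in sgControl libraries 1 and 3 there, COL5A3 2.99 times, COL9A2 2.74 times, COL9A3 2.38 times, COL6A2 2.21 times, COL4A4 1.98 times and COL6A1 1.96 times. COL10A1 and COL4A4 transcripts had 45.5% and 49.5% GC, whereas the others named here had over 60%. For COL3A1, COL1A1, COL1A2, COL27A1 and COL6A3 the ratio was between 0.892 and 1.14. Over all tested genes with a GC value, the median ratio was 0.827 where the transcript had under 45% GC, 1.06 from 45 to 60% and 1.17 at 60% or more. The part of GC content in these results was not tested beyond the corrected fit given with the other settings.

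**Figure D5:**
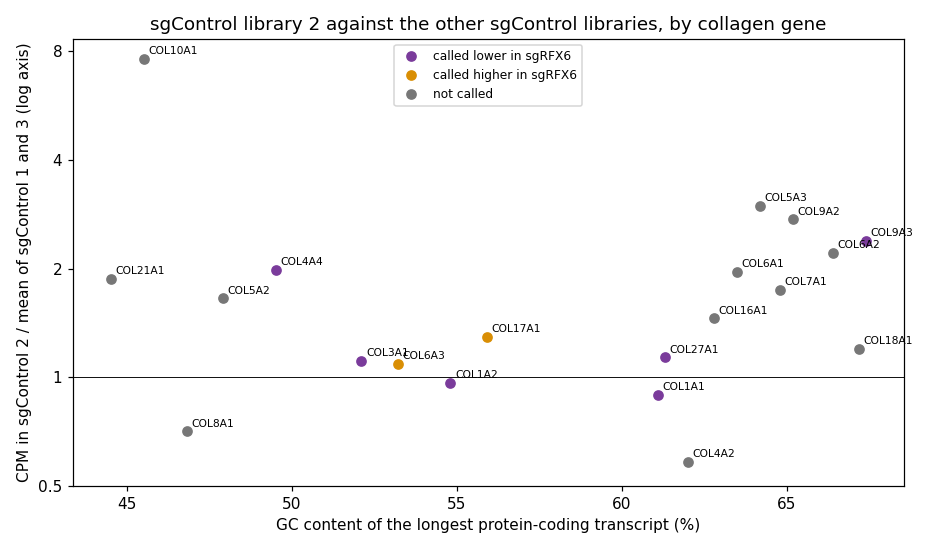
CPM in sgControl library 2 over the mean of sgControl libraries 1 and 3 (log axis) against the GC content of the longest protein-coding transcript (%), 1 point per tested collagen gene, coloured by its call. COL10A1 stands highest at 7.61, and COL5A3, COL9A2, COL9A3 and COL6A2 lie above 2 at GC contents over 60%.

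Genes that make, process, degrade and bind collagen were counted in 6 lists. Of 117 members tested, 4 were called lower and 2 higher, against the 1.81% and 1.92% of all genes given above. Among enzymes that fold and modify collagen, 0 of 23 were called, with a median log2 fold change of -0.13, and 8 exceeded 100 CPM in both groups. Among those that process and cross-link it, 0 of 8 were called, with a median of -0.49. Receptors had 0 of 16 called (median 0.08) and the transforming growth factor beta and mesenchymal list 0 of 20 (median -0.21). At an unadjusted p under 0.05, edgeR had 1, 2, 6 and 3 genes in these 4 lists, against 15.6% of all genes. DESeq2 called 0, 0, 3 and 1 of them (6.44% of all genes), and limma-voom with sample quality weights 4, 2, 9 and 6 (31.1%).

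Among collagen-degrading enzymes and their inhibitors, 26 were tested and 2 were called, with a median of -0.13. They were 1 lower and 1 higher, against 1.81% and 1.92% of all genes tested. MMP1, the interstitial collagenase that cuts types I and III, was counted 329, 366 and 431 times in sgControl and 39, 32 and 34 times in sgRFX6 (log2 fold change -3.17, SE 0.26, edgeR adjusted p = 0.000801). MMP7, matrilysin, was counted 307, 266 and 444 times against 1655, 1632 and 2594 times (2.76, SE 0.26, adjusted p = 0.00123). The groups were far apart for both, in opposite directions. MMP1 and MMP7 share a region of chromosome 11, whose nearest 50 tested genes had a median of 0.49.

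Among fibril-associated matrix proteins, 24 were tested, 3 were called lower and 1 higher, with a median of -0.11. Of all genes tested, 1.81% were called lower and 1.92% higher. SPARC, a collagen-binding matricellular protein, was counted 118, 254 and 189 times in sgControl and 29, 7 and 10 times in sgRFX6 (log2 fold change -3.35, SE 0.50, edgeR adjusted p = 0.00852). VCAN, the proteoglycan versican, was counted 7943, 9935 and 6770 times against 1329, 634 and 2913 times (-2.18, SE 0.39, adjusted p = 0.0188). NID1, which links laminin to type IV collagen, was counted 7914, 11562 and 10326 times against 5448, 3971 and 4775 times (-0.81, SE 0.17, adjusted p = 0.0346). LAMA4, a laminin chain, was higher, with 96, 147 and 129 counts against 355, 238 and 385 (1.63, SE 0.23, adjusted p = 0.00683). For each of these 4 genes, which were named for their calls, the groups did not overlap. Of all genes tested, 11.2% had every sgRFX6 library below every sgControl library and 12.0% every one above.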

How the data were processed

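Total RNA of Hep3B cells (3 sgControl and 3 sgRFX6 libraries) had been isolated with Trizol and sequenced as cDNA on an Illumina instrument. The authors deposited raw counts per gene and library. Submitters' processing notes name GRCh38/hg38, and the aligner, counter and strand setting are not given in the sources used here. The counts were used unchanged, except that a row with no gene name (at most 9.17e-05% of counts) was left out. All libraries entered edgeR 4.0.16 (R 4.3.3): filterByExpr (minimum count 10, minimum total 15), TMM and the quasi-likelihood test without covariates, with Benjamini-Hochberg adjustment over all 12839 genes and a threshold of 0.05. CPM used TMM-scaled library sizes. The fit was tested on simulated data. Ratios carry exact 95% intervals conditional on the pooled counts (SciPy 1.17.1). Positions, longest protein-coding transcripts and GC content came from GENCODE 29 (39 of 39 collagen genes matched), and upstream sequence from RefSeq (GRCh38.p14).

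Alternatives were RLE factors, library size only, no filter, a replicate block, limma-voom with sample quality weights (limma 3.58.1), DESeq2 1.42.0, each library left out, and, chosen after seeing the data, a GC trend (loess, span 0.3) removed. Members, lists and tests were chosen with earlier results of these data known. Genes named were members called, at the floor (3 counts or fewer in every library) in 1 group only, most abundant per kilobase in their class or adjacent to a called member, up to 4 called genes per list, and RFX6. Markers of cell types were named beside them.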

Additional observations from a re-analysis of the deposited data

How the results depend on the processing

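Counts of called collagen genes were 2 higher and 6 lower with RLE factors and with library size only, as in the reported fit. Without a filter on low counts 10 were lower (adding COL4A1, COL5A1, COL9A2 and COL10A1), when 1.6% of all genes were called lower. Of the added genes, COL4A1 and COL5A1 had at most 1 count in any sgRFX6 library, and COL10A1 had 1, 1 and 7. Limma-voom with sample quality weights called 7 higher and 8 lower, when it called 18.1% and 13.0% of all genes. DESeq2 called 3 higher and 9 lower (3.44% and 2.99% of all genes), and removal of the GC trend 3 and 8 (5.94% and 4.97%), against 1.92% and 1.81% as reported. Leaving out 1 library gave 1 to 2 higher and 3 to 7 lower, the 3 without sgRFX6 library 1. Those fits called 0.65 to 3.32% of all genes higher and 0.844 to 2.2% lower, the 0.844% without sgRFX6 library 1. COL1A2, COL3A1, COL4A4 and COL17A1 were called in all 13 alternatives. Of these, COL1A2, COL3A1 and COL4A4 had counts above the filter in sgControl alone, so their repeated calls are a description and no support. COL1A1 and COL27A1 lost the call in 2 alternatives and COL6A3 and COL9A3 in 5, all of them with a library left out. Of the pathway list genes, 6 were called as reported, 11 without a filter (3.26% of all genes called), 12 with the block (5.05%), 23 with the GC trend removed (10.9%), 14 by DESeq2 (6.44%) and 42 by limma-voom (31.1%). With a library left out, 4 to 11 were called (1.62 to 5.52% of all genes), the 11 without sgRFX6 library 3 (5.52%). Values near 0 changed sign: COL6A1 (-0.023) and COL6A2 (-0.026) without sgControl library 1 (to 0.576 and 0.682 with others left out), COL7A1 in limma-voom (0.25) and without sgControl library 2 (0.20, lowest -0.312), COL8A1 in limma-voom (-0.24), and COL18A1 with RLE factors (-0.001), library size (-0.015), the block (-0.017), the GC trend removed (-0.007) and DESeq2 (-0.0), and in 3 fits without a library (-0.148 to 0.185 over all 6). The cause was not tested. Deviations of same-numbered libraries correlated at -0.52, 0.22 and -0.12. Libraries of different numbers were not compared, so these values cannot show whether the numbers pair the samples. With the replicate number as a block, edgeR called 3 collagen genes higher (adding COL5A3, adjusted p = 0.0438). It called 8 lower (adding COL9A2, 0.00600, and COL10A1, 0.000968), against 2.51% higher and 2.54% lower of all genes. The filter on low counts left 19 collagen genes untested.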
